A study of Mus musculus with 6 samples.

Results

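Id1, Id2 and Id3, 3 genes that answer to bone morphogenetic protein (BMP), and Inhba, which encodes a subunit of activin, were followed in MLO-Y4 cells, a mouse cell line that resembles osteocytes, the cells buried in the bone matrix. They were found by their symbols in the table of genes the authors had selected, and all 4 are among its 2065 genes. The 3 libraries labelled hypoxia (replicates 1, 2 and 4) are described as from cells held at 2% O2 in a hypoxic chamber. The 3 labelled normoxia (replicates 2, 3 and 4) are described as from cells kept at 20% O2. The genotype is given as WT for all 6 libraries, and the time as 24 h in the titles, where the descriptions of single libraries state 24, 25 or 26 h. Whether replicates came from separate cultures is not stated, so the p-values reflect only the spread between these libraries, which may be technical.

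Id proteins carry a helix-loop-helix domain but no basic region, so they pair with E proteins and other basic helix-loop-helix (bHLH) factors and keep them off DNA. BMP receptors phosphorylate SMAD proteins that enter the nucleus and switch on Id1, Id2 and Id3, which are among the most direct targets of this pathway in bone-forming cells. The product of Inhba, the beta A subunit, pairs with itself to form activin A, a ligand that acts through another branch of SMAD proteins and is held in check by follistatin and its relatives.

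The 4 genes did not move together. Id3 and Id1 were higher in the libraries labelled hypoxia, by 3.18 ± 0.09 and 1.89 ± 0.07 (SE) on the log2(value + 1) scale, and Id2 and Inhba were lower, by -1.87 ± 0.11 and -1.32 ± 0.07. The scale is that of the deposited entries, whose linear unit has no name, so levels are compared between libraries and not between genes. In whole cell cultures, fewer cells of a type and less RNA per cell cannot be told apart.

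The labels need a caution before these directions are read. Of 25 targets of hypoxia-inducible factor (HIF), the factor that accumulates when oxygen is low, 16 are listed, and 15 of them were lower and 1 higher in the libraries labelled hypoxia (median change -1.82, against 1.15 for all tested genes). The glucose transporter Slc2a1 averaged 7.72 ± 0.12 in the libraries labelled hypoxia and 10.85 ± 0.10 in those labelled normoxia (SD, n = 3 each). The 1 higher target, Pfkfb4 (change 1.46 ± 0.19), which makes a regulator of glycolysis, was no longer called once trimmed mean (TMM) factors were applied (change 0.25, limma, adjusted p = 0.269). With quantile normalization Pfkfb4 was still called higher (change 0.59, limma, adjusted p = 0.0105). Every direction here is therefore given by label only.

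The table holds genes the authors chose for change between these same libraries, each differing by 1.00 or more on the log2 scale, so no p-value here is independent evidence. Limma called 100% of the 2056 genes tested at a Benjamini-Hochberg adjusted p under 0.05, with 79.4% higher and 20.6% lower under the hypoxia label, and the 4 genes are read against that. The groups of libraries did not overlap for any of the 4 genes, as for 99.9% of listed genes. Across listed genes, r was 0.991 to 0.996 between libraries sharing a label and 0.764 to 0.807 between libraries that did not, a description over genes chosen for that difference. Linear values summed over all listed genes came to 161067 to 166071 in the libraries labelled hypoxia and 175405 to 183535 in those labelled normoxia, and sequencing depth is unknown. TMM factors rest on the premise that the bulk of a table is unchanged. They brought the median change over tested genes to 0.0036, against 1.15 as deposited, and quantile normalization brought it to 0.36.

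Of the osteocyte markers, 1 of 10 is listed, podoplanin (Pdpn), at 8.00 ± 0.05 in the libraries labelled hypoxia and 6.24 ± 0.09 in those labelled normoxia (SD, n = 3 each). Other osteocyte genes (Sost, Dmp1, Phex, Fgf23) are not among the listed ones and were not analysed here, so the labelled cell type could be checked only in part. Of the osteoblast markers, 7 of 10 are listed, 5 higher and 2 lower under the hypoxia label (median change 1.78 on the log2(value + 1) scale, changes below ± SE). The osteocalcin genes Bglap (1.78 ± 0.13) and Bglap2 (1.87 ± 0.13), the collagen chains Col1a1 (2.71 ± 0.18) and Col1a2 (1.85 ± 0.10) and osteopontin (Spp1, a ratio of linear means of 2.15) were higher as deposited. With TMM factors Spp1 stood at -0.20 and was not called, while with quantile normalization it was called higher (1.47). Bglap and Bglap2 are near-identical copies, so reads may be split between them. Runx2 (-1.04 ± 0.12) and the phosphatase gene Phospho1 (-2.24 ± 0.10) were lower. The summed linear values of the osteoblast markers, mostly from Spp1, were 22170 to 22990 under the hypoxia label and 10300 to 10720 under the normoxia label. Markers of the remaining cell types that moved with the labels were 2 of 10 for macrophages and osteoclasts, 1 of 6 for adipocytes, 1 of 4 for cartilage cells, 1 of 5 for muscle and 0 of 6 for endothelium. Their summed linear values were 8.34 to 10.7 in the libraries labelled hypoxia and 22.8 to 26.5 in those labelled normoxia for macrophages and osteoclasts. That sum is mostly Cd68, which was lower (-1.46 ± 0.11), while Mmp9 was higher (1.16 ± 0.15). Mmp9 was near the floor under the normoxia label (linear values of 0.081, 0.117 and 0.085). The size of its change therefore depends on the pseudocount, at 2.97 with 0.1 and 0.34 with 5. For adipocytes they were those of Cebpa alone, 4.03 to 4.59 under the hypoxia label and 1.18 to 1.47 under the normoxia label. For cartilage they were those of Sox9 alone, 16.0 to 19.2 under the hypoxia label and 71.9 to 87.6 under the normoxia label. For muscle they were those of Acta1 alone, 0.897 to 1.24 under the hypoxia label and 9.06 to 12.8 under the normoxia label. None of these listed markers was at 0 in any library, and their part in the results below was not tested.

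Id3 (ENSMUSG00000007872, chromosome 4) had the largest change of the 4 genes. Its linear values were 63.1, 71.0 and 73.3 in the libraries labelled hypoxia, replicates 1, 2 and 4, against 6.30, 6.59 and 7.24 in those labelled normoxia, replicates 2, 3 and 4. All 3 libraries labelled hypoxia were far above all 3 labelled normoxia, and the lowest of the 9 differences between a library of each label was 2.96 on the log2(value + 1) scale and the highest 3.35. The ratio of mean linear values, hypoxia label over normoxia label, was 10.3. On the log2(value + 1) scale the mean was 6.13 ± 0.11 under the hypoxia label and 2.94 ± 0.09 under the normoxia label (SD, n = 3 each; limma, Benjamini-Hochberg adjusted p = 1.12e-08). The authors' deposited table gives Id3 an adjusted p of 3.71e-05. Among the 1638 listed genes with a higher value under the hypoxia label, the change of Id3 ranked 18.

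Id1 (ENSMUSG00000042745, chromosome 2), the founding member of the family, had linear values of 39.0, 39.4 and 40.0 in the libraries labelled hypoxia and 9.97, 9.97 and 9.72 in those labelled normoxia. The libraries of each label lay very close together and the labels did not overlap. Its mean entry was 5.34 ± 0.02 under the hypoxia label and 3.44 ± 0.02 under the normoxia label (SD, n = 3 each; limma, Benjamini-Hochberg adjusted p = 3.85e-08). Its pooled SD of 0.019 between libraries of 1 label was the fifth smallest of the 2065 listed genes. The ratio of mean linear values was 3.99, and the change ranked 139 among the 1638 higher genes.

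Id2 (ENSMUSG00000020644, chromosome 12), whose product is known for its role in innate lymphoid cells, went the other way. Its linear values were 11.9, 13.2 and 10.9 in the libraries labelled hypoxia and 50.1, 41.0 and 48.7 in those labelled normoxia. All libraries labelled hypoxia lay below all labelled normoxia, and replicate 3 was the lowest of those labelled normoxia. The mean entry was 3.70 ± 0.13 under the hypoxia label and 5.57 ± 0.15 under the normoxia label (SD, n = 3 each; limma, Benjamini-Hochberg adjusted p = 1.94e-07), the widest spread of the 4 genes. The ratio of mean linear values, hypoxia label over normoxia label, was 0.258, and the change ranked 129 from the lowest among 427 lower genes.

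Inhba (ENSMUSG00000041324, chromosome 13) had linear values of 18.3, 20.1 and 18.5 in the libraries labelled hypoxia and 49.4, 49.1 and 47.8 in those labelled normoxia. The groups were well apart, with differences between single libraries of -1.39 to -1.21 on the log2(value + 1) scale. The mean entry was 4.32 ± 0.07 under the hypoxia label and 5.64 ± 0.02 under the normoxia label (SD, n = 3 each; limma, Benjamini-Hochberg adjusted p = 1.85e-07), and the ratio of mean linear values was 0.388. Its change ranked 268 from the lowest of the 427 lower genes. In GENCODE release M21, which is of an older build than the one the submitters name, Inhba overlaps 2 genes on the other strand and the Id genes overlap none. The library kit keeps strand, but the sources used here do not say how counting used strand, so reads of Inhba and these neighbours may not be told apart.

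**Figure D1:**
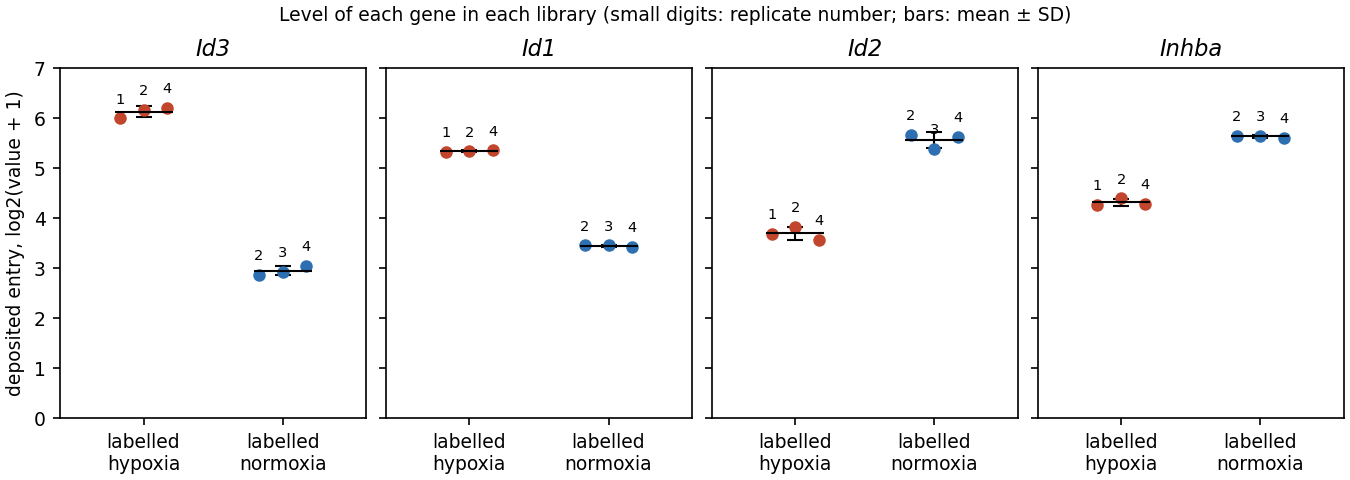
Deposited entries, log2(value + 1), of Id3, Id1, Id2 and Inhba in each library, with the libraries labelled hypoxia left of those labelled normoxia; points are libraries, digits are replicate numbers and bars are the mean ± SD of 3 libraries. Id3 (6.13 under the hypoxia label, 2.94 under the normoxia label) and Id1 (5.34 under hypoxia, 3.44 under normoxia) lie higher under the hypoxia label, Id2 (3.70 under hypoxia, 5.57 under normoxia) and Inhba (4.32 under hypoxia, 5.64 under normoxia) lie lower, and no groups overlap.

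The sequence before the start site is shown for Id3 and Id2, the Id genes with the largest rise and with the fall, since the same receptors are known to act on both. RefSeq's windows (build GRCm38.p6) matched 3 of the 4 genes, Id2, Id3 and Inhba, and the 250 bases before the start are given here, 5′ to 3′ on the gene's strand. Capitals mark matches, on either strand, to letters known from SMAD binding (GGCGCC and CAGAC), to CCAAT, to the core of the HIF site (ACGTG and GCGTG) and to TATAA. The Id3 window is chr4:136143572-136143821 on the + strand and the Id2 window is chr12:25096093-25096342 on the - strand.
Id3: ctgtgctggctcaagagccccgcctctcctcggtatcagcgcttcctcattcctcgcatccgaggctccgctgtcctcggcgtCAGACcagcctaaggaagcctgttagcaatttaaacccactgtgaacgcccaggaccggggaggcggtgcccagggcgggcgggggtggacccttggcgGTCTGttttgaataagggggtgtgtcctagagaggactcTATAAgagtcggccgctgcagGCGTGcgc
Id2: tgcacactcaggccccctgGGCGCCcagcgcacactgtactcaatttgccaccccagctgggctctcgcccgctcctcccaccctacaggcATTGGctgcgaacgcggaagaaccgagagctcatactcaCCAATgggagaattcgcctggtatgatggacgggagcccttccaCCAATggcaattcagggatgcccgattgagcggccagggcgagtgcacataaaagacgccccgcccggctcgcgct

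The windows of both genes are equally rich in G and C, at 62.8% each, where the median of all 32851 windows is 52.4%. The Id3 window holds CAGAC 2 times, once on each strand, at positions -167 to -163 and -68 to -64 counted from the start site, and TATAA at -29 to -25. CAGAC is found in 42.2% of all windows of this length and TATAA in 22.8%. Id3 also holds GCGTG at -8 to -4, as 28.2% of windows do.

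The Id2 window holds GGCGCC at -231 to -226, which 9.59% of windows have, and CCAAT 3 times, which 33.8% have at least once. It has no match to CAGAC, to either form of the HIF core or to TATAA. The Id3 window has none to GGCGCC, none to the CCAAT box and none to the HIF core spelled ACGTG, which 16.6% of windows hold. The Inhba window, not printed, holds GCGTG once and TATAA once, and its share of G and C is 43.2%. No motif overlaps another in the printed windows, and a match is a run of letters, not a shown site.

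Compared within each library, the Id genes shifted against each other. Id3 minus Id1, as a difference of log2(value + 1) entries, was 0.68, 0.83 and 0.86 in the libraries labelled hypoxia, replicates 1, 2 and 4, against -0.59, -0.53 and -0.38 in those labelled normoxia, replicates 2, 3 and 4. This difference does not depend on a factor that scales a whole library, apart from the pseudocount. It was higher in every library labelled hypoxia than in any labelled normoxia, and the groups differed by 1.29. Its sign depends on the unnamed unit and on transcript length, so only the shift between labels is read.

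Id1 minus Id2 was 1.64, 1.50 and 1.79 in the libraries labelled hypoxia and -2.22, -1.94 and -2.21 in those labelled normoxia. Id3 minus Id2 was 2.32, 2.34 and 2.64 under the hypoxia label and -2.81, -2.47 and -2.59 under the normoxia label. The groups differed by 3.77 and 5.05, the widest gap being between the genes that moved furthest in opposite directions. For each of the 3 pairs the exact two-sided permutation test over samples gave p = 0.1 (also 0.1 after Benjamini-Hochberg adjustment over the 3 pairs), the smallest that 3 libraries against 3 allow, and the libraries of the labels were fully apart in all 3. For Id1 minus Id2 and Id3 minus Id2 this outcome was fixed in advance, since the genes of each pair moved in opposite directions without overlap. Only Id3 minus Id1 could have come out otherwise.

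**Figure D2:**
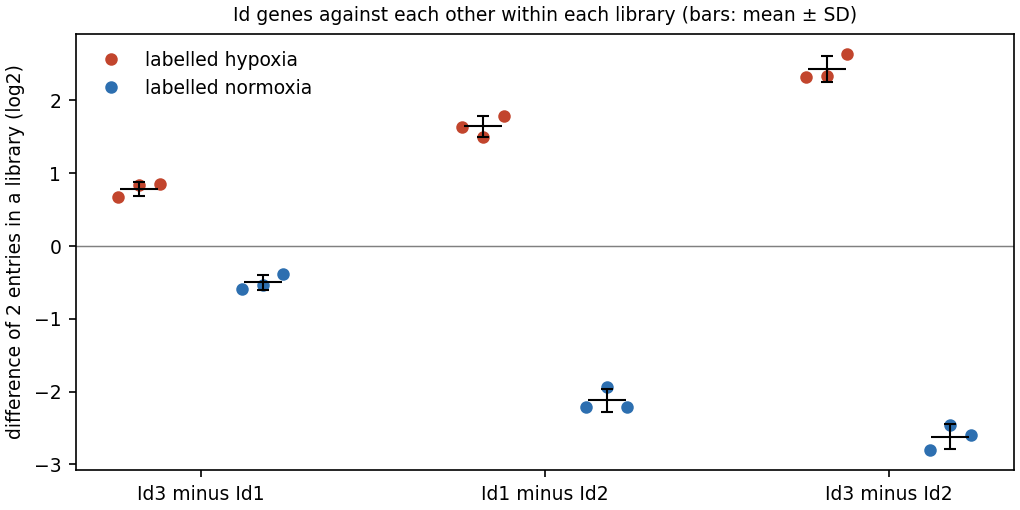
Difference of the entries of 2 Id genes within each library (log2 scale), libraries labelled hypoxia left of those labelled normoxia; points are libraries and bars the mean ± SD of 3. Each difference is higher in every library labelled hypoxia than in any labelled normoxia, with means of 0.79 (hypoxia) and -0.50 (normoxia) for Id3 minus Id1, 1.64 (hypoxia) and -2.12 (normoxia) for Id1 minus Id2, and 2.43 (hypoxia) and -2.62 (normoxia) for Id3 minus Id2.

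Directions of all 4 genes held when the libraries were scaled to each other. Both scalings lowered the median change, from 1.15 as deposited to 0.0036 with TMM factors and 0.36 with quantile normalization. A reversal was thus mainly open to Id3 and Id1, and Id2 and Inhba, already lower, were little exposed to one. With TMM factors Id3 changed by 1.97 and Id1 by 0.67, Id2 by -3.11 and Inhba by -2.58. With quantile normalization Id3 changed by 2.35, Id1 by 1.03, Id2 by -2.70 and Inhba by -2.12. Each passed limma's threshold under both, and the largest Benjamini-Hochberg adjusted p was 6.5e-05, for Id1 with TMM factors. Of all 2056 tested genes, 1056 were called with TMM factors and 1811 with quantile normalization, and the calls of the 4 are read against that. Relative to the median change of all tested genes as deposited, Id3 stood at 2.03, Id1 at 0.74, Id2 at -3.02 and Inhba at -2.47. Read this way Id2 and not Id3 lay furthest from the bulk of the listed genes, and Id1 lay closest to it. That the lower genes lay further off than Id3 was fixed by the selection. The median was 1.15 and each listed gene differed by 1.00 or more, so any lower gene lies further from it than Id3 did.

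**Figure D3:**
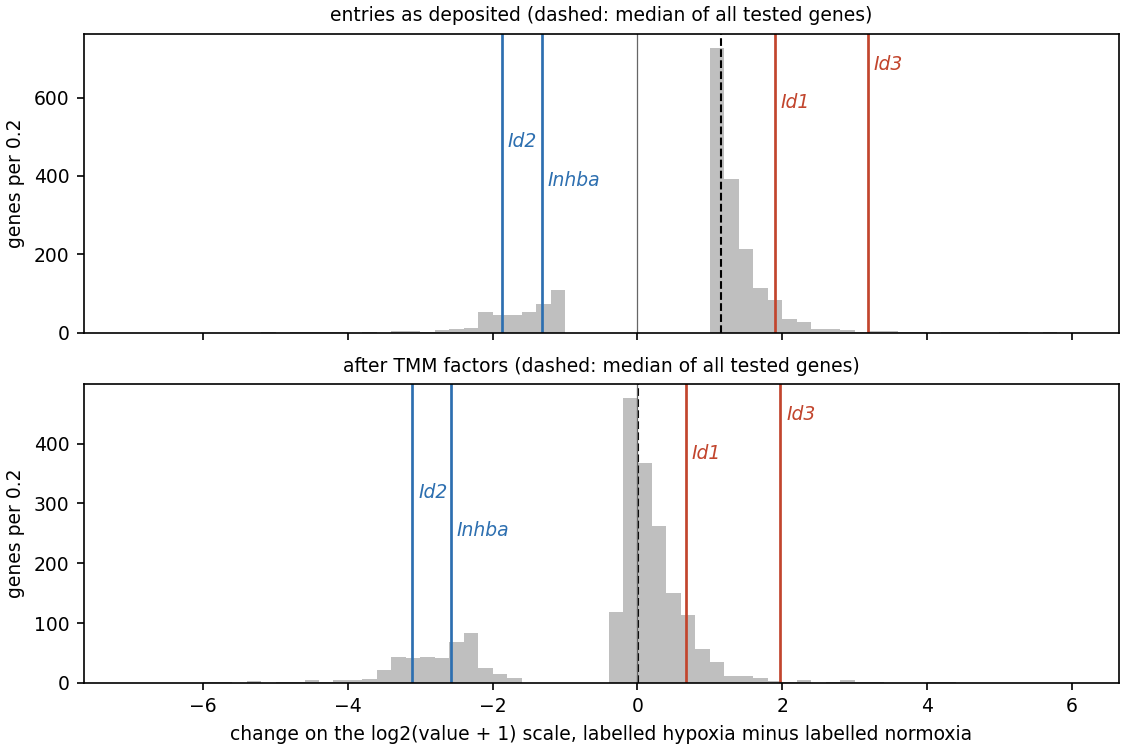
Changes of all 2056 tested genes on the log2(value + 1) scale, hypoxia label minus normoxia label, as deposited (top) and with TMM factors (bottom), in counts of genes per 0.2; coloured lines are Id3, Id1, Id2 and Inhba, and the dashed line is the median of all tested genes (1.15 and 0.0036). The gap around 0 in the top panel is the authors' selection, and Id1 (1.89 as deposited, 0.67 with TMM factors) is the nearest of the 4 to the median.

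Genes around the 4 were looked up on 10 lists. Some lists cover the BMP, activin and TGF-beta pathways, and others bHLH proteins, genes known to act on Id genes or proteins, and targets of Id action. Together they hold 191 genes, each counted once and without the 4 themselves. Of these 25 are listed, 13 higher and 12 lower under the hypoxia label, with a median change of 1.01, where 79.4% of all tested genes were higher and their median was 1.15. No listed gene has a change near 0, so the median of so even a split turns on a single gene. The lower genes include Vegfa and Mxi1, which are also among the HIF targets counted above, and Bhlhe40, also known as a HIF target. The split is therefore in part the same pattern counted again. No ligand or receptor on these lists is among the selected genes, with 0 of 15 BMP ligands, 0 of 13 other activin, inhibin and TGF-beta ligands and 0 of 18 receptors and co-receptors listed. Tgfb1 has a log2 fold change of 0.68 (adjusted p = 0.00601) in a short sheet of the authors' deposited table, below the change that the larger sheet requires.

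Secreted and membrane antagonists and carriers were 5 of 21, 3 higher and 2 lower (median 1.12). Bmper, which encodes a secreted protein that binds BMPs, had linear values of 36.6, 37.0 and 38.1 in the libraries labelled hypoxia and 10.8, 8.88 and 8.38 in those labelled normoxia (change 1.89 ± 0.10). All libraries labelled hypoxia were above those labelled normoxia, and Bmper was still called higher with TMM factors (0.67). Fstl3, a follistatin relative that binds and neutralises activin, was at 29.0, 28.4 and 25.9 under the hypoxia label and 87.2, 83.3 and 90.7 under the normoxia label (change -1.61 ± 0.07). Fstl3 and Inhba, inhibitor and ligand, were thus both lower. The labels overlapped for none of these genes, as for 99.9% of listed genes.

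Bambi, a receptor-like protein without a kinase that damps BMP and TGF-beta signals and is itself a BMP target, was at 0.851, 0.785 and 0.826 in the libraries labelled hypoxia and 2.80, 2.98 and 3.64 in those labelled normoxia (change -1.18 ± 0.10). These levels are low, so the pseudocount of 1 makes the change smaller than the ratio of 0.262. Fstl1, a secreted glycoprotein related to follistatin (1.37 ± 0.10), and Ltbp3, which stores latent TGF-beta in matrix (1.12 ± 0.09), were higher as deposited, and neither was called with TMM factors (0.08 and -0.18), though both were with quantile normalization (0.89 and 0.97). The nuclear SMAD repressor Ski, 1 of 20 listed among SMADs and their regulators, had a change of 1.34 ± 0.13 that also lost its call with TMM factors (0.12; limma, adjusted p = 0.368) and kept it with quantile normalization (0.48).

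Other BMP targets were 3 of 20, all lower (median -1.18), unlike Id1 and Id3. Beside Bambi these were the osteoblast transcription factor Runx2, at 3.31 ± 0.19 under the hypoxia label and 4.34 ± 0.15 under the normoxia label, and Hes1, a bHLH repressor that also answers to Notch, at 3.44 ± 0.03 under the hypoxia label and 5.43 ± 0.27 under the normoxia label (SD, n = 3 each). Among the osteoblast markers Runx2 was 1 of 2 lower, beside 5 higher. The inhibitory SMAD genes Smad6 and Smad7 and the fourth family member Id4 are outside the selected genes and were not analysed here.

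Targets of TGF-beta and activin were 5 of 16, 2 higher and 3 lower (median -1.07). The matricellular gene Ccn2 (-1.73 ± 0.11) and the repressor Snai2 (-1.07 ± 0.09) were lower beside Inhba, as was Bhlhe40. The collagen chain Col1a1 (2.71 ± 0.18, still called with TMM factors at 1.46) and Snai1 (1.34 ± 0.13, not called with TMM factors at 0.08 but called with quantile normalization at 0.55) were higher.

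Genes for proteins with a bHLH domain, some of them partners of Id proteins and others only relatives of these, were 7 of 49. Of the 7, 2 were higher and 5 lower (median -1.99). The E protein genes Tcf3, Tcf4 and Tcf12, the main partners of Id proteins, are outside the selected genes and were not analysed here. The 5 lower genes encode transcriptional repressors or antagonists of MYC. Bhlhe40 had linear values of 102, 105 and 97.8 in the libraries labelled hypoxia and 1051, 995 and 1204 in those labelled normoxia (change -3.40 ± 0.09). Its relative Bhlhe41 was at 9.52, 9.99 and 7.55 under the hypoxia label and 42.0, 43.7 and 43.6 under the normoxia label (-2.15 ± 0.11). The labels did not overlap for either gene, as for 99.9% of listed genes. Mxi1 (-2.07 ± 0.09) and Mxd1 (-1.60 ± 0.11), which compete with MYC for its partner MAX, and Hes1 were lower too, and Bhlhe40 and Mxi1 are also known as HIF targets. The 2 higher genes were Hif1a (1.47 ± 0.06, not called with TMM factors at 0.18 but called with quantile normalization at 0.90) and the clock activator Arntl (1.43 ± 0.09, 0.28 with TMM factors), the last named after its values were seen.

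Among genes known to act on Id genes or proteins 2 of 16 are listed, both higher as deposited (median 1.87). Klf2, a zinc finger factor, was at 22.8, 23.1 and 22.7 in the libraries labelled hypoxia and 3.54, 2.49 and 2.06 in those labelled normoxia, a ratio of means of 8.47. Its change of 2.71 ± 0.14 stayed called with TMM factors (1.62), while the signal transducer Stat5a (1.04 ± 0.10 as deposited) stood at -0.17 with TMM factors and 0.15 with quantile normalization and was called with neither. Genes known as targets of Id action were 5 of 18, 3 higher and 2 lower (median 1.01). The cell cycle gene Ccnd1 was higher (2.06 ± 0.13, still called with TMM factors at 0.79). The growth factor gene Csf1 (1.49 ± 0.09) and the ETS factor Elk3 (1.01 ± 0.13) were higher as deposited, and neither was called with TMM factors (0.20 and -0.22). With quantile normalization Csf1 stayed called (1.42) and Elk3 did not (0.13). Thbs1, an inhibitor of vessel growth that Id1 is known to repress in mouse cells, was lower (-1.17 ± 0.12), and a link to Id1 was not tested. Vegfa, also among the lower HIF targets above, was lower too (-1.03 ± 0.07).

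**Figure D4:**
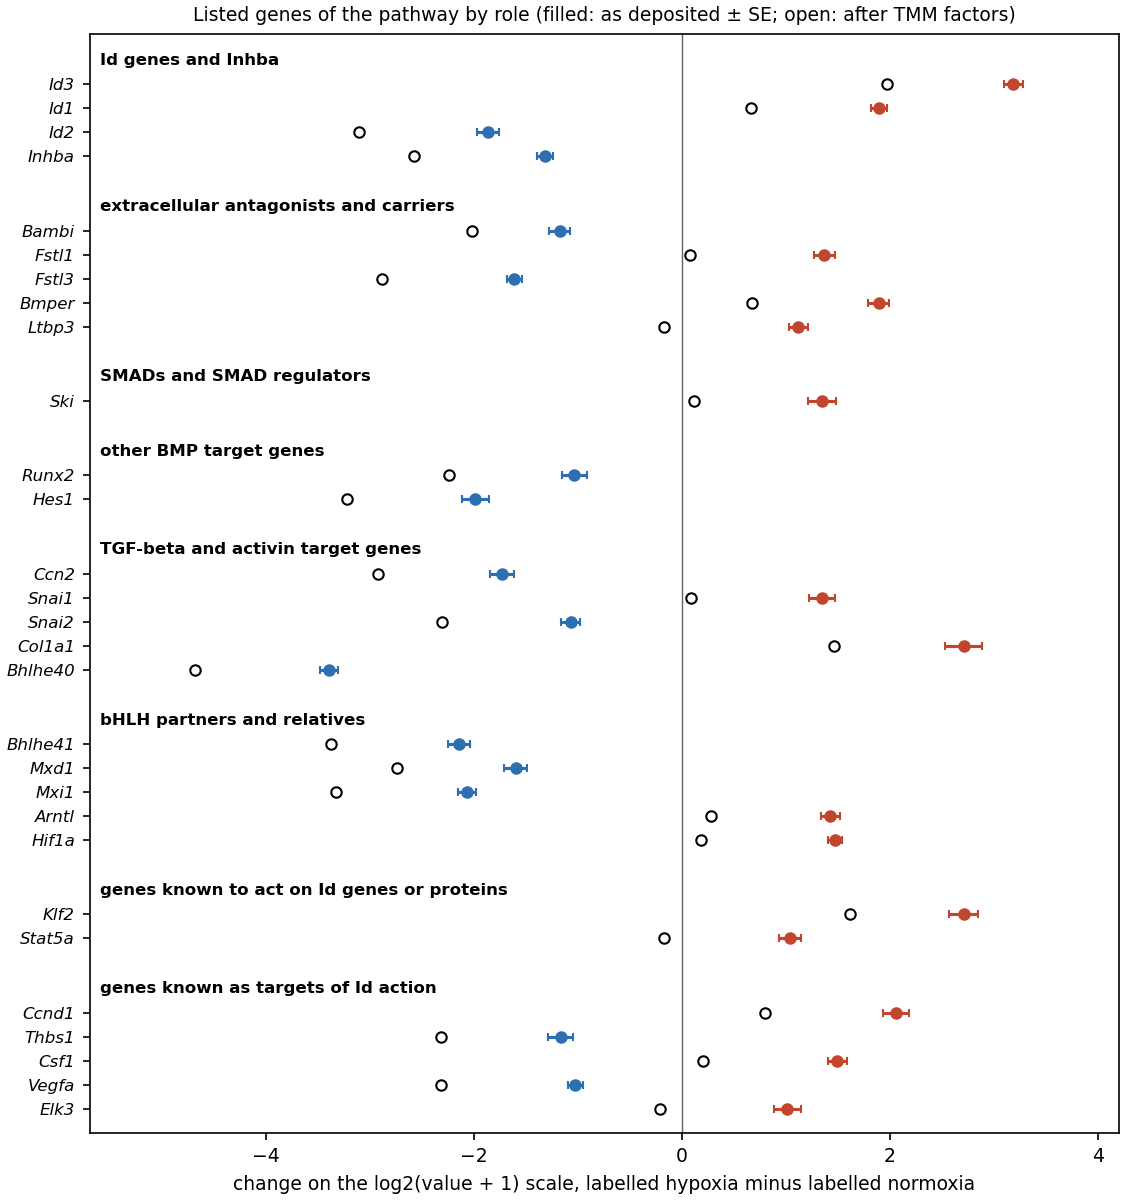
Change of Id3, Id1, Id2, Inhba and the 25 listed genes around them on the log2(value + 1) scale, hypoxia label minus normoxia label, grouped by role. A gene on several lists is drawn once. Filled points are the entries as deposited ± SE and open circles the same genes with TMM factors. Of the 25 genes 13 are right of 0 and 12 left of it as deposited, and the open circles of Ltbp3, Stat5a and Elk3 cross to the left of 0.

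The genes most like each of the 4 were taken as the 3 with the smallest distance between entries centred on their own mean, over all 6 libraries, among 1728 annotated genes. Such a distance is set mostly by the size of the change and says nothing of shared function. Nearest to Id1 were Lrig1 (distance 0.11), a regulator of growth factor receptors, the p38 pathway kinase Map2k3 (0.11) and the cyclic AMP phosphodiesterase Pde4b (0.11). Nearest to Inhba were the initiation factor gene Eif1b (0.08), the zinc finger repressor Zbtb20 (0.10) and the deubiquitinase Usp22 (0.14).

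Id2 lay nearest to Tet2 (0.20), an enzyme that oxidises methylated cytosine, the metallothionein Mt1 (0.25) and the poly(A) polymerase Tent5a (0.27). Like Id2, these had their lowest normoxia-labelled value in replicate 3. Id3 had no close match. Its nearest genes were Sdf2l1 (0.53), a chaperone component of the endoplasmic reticulum, the collagenase Mmp13 (0.53) and Herpud1 (0.54), a part of protein degradation at that membrane, with changes of 3.26 ± 0.12, 2.90 ± 0.10 and 2.92 ± 0.11.

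**Figure D5:**
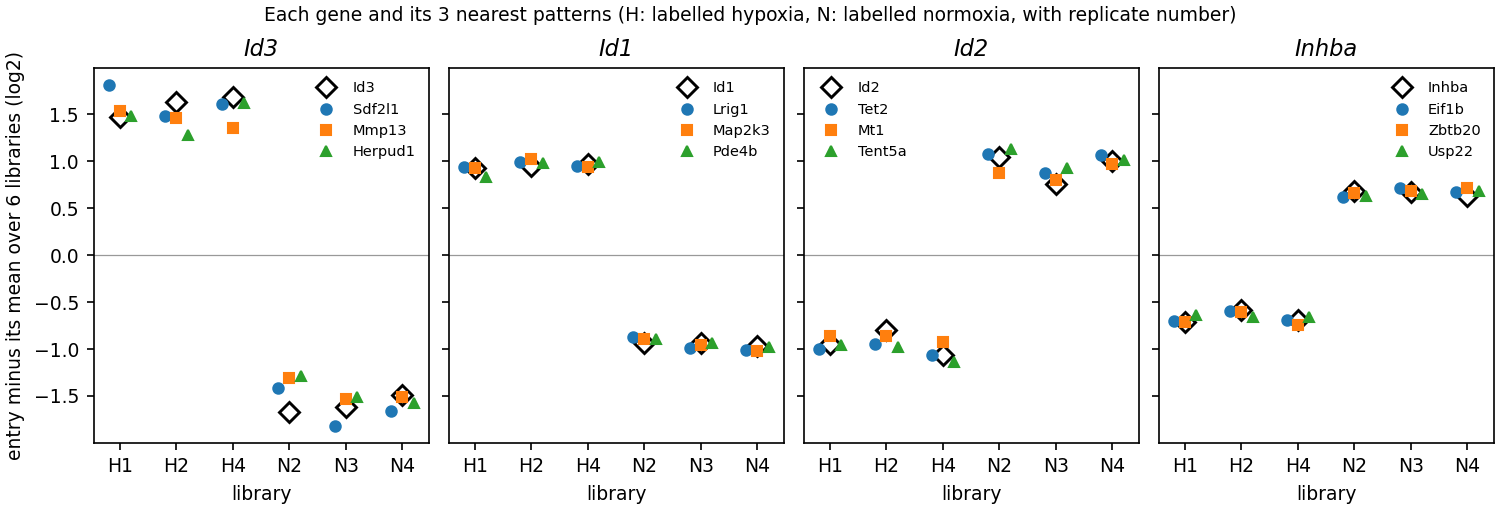
Entries of Id3, Id1, Id2 and Inhba (open diamonds) and of the 3 genes nearest to each (filled symbols), each minus its own mean over 6 libraries (log2 scale), with the libraries labelled hypoxia (H) left of those labelled normoxia (N) and the replicate number. The genes nearest to Id1 and Inhba lie almost on them (distances 0.08 to 0.14), and those nearest to Id3 lie furthest off (0.53 to 0.54).

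Of the 16 protein-coding genes that flank the 4 in RefSeq's annotation of the older build, the nearest 2 on each side, 4 are listed. They were chosen by position. Both listed neighbours of Id1, the signal peptide peptidase H13 (1.20 ± 0.08) and the survival gene Bcl2l1 (1.26 ± 0.10), were higher as deposited and slightly below 0 with TMM factors (-0.08 and -0.01), where Id1 stayed called higher. With quantile normalization both were called higher (0.50 and 0.52). Near Id2 the interferon-induced gene Rsad2 was lower (-1.54 ± 0.10). Near Inhba, AW209491 was higher (1.32 ± 0.10) where Inhba was lower, and none of the 4 neighbours of Id3 is listed.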

How the data were processed

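Messenger RNA was sequenced from 6 libraries, 3 labelled hypoxia and 3 labelled normoxia. FastQC 0.12.0, DRAGEN and build GRCm39 (mm39) are named in the submitters' processing notes, without settings. The authors deposited a log2 entry per gene and library for 2065 genes. The entries were read as log2(value + 1), since undoing that transform left 3 decimals in 100% of them (tolerance 1e-06). The linear unit is not named, and depth and its precision are unknown. The authors also deposited a log2 fold change, which equals the difference of group means, and an adjusted p-value whose test is not stated. Another 21 columns were not used.

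Limma 3.58.1 (R 4.3.3), with trend and robust estimation, was fitted to the 2056 listed genes that reached a value of 1 in 3 or more libraries. Benjamini-Hochberg adjustment was over all of them, with a threshold of 0.05. The fit was also run on simulated data. Most genes there were unchanged, unlike in this selected table, so that run does not bear on the calls made here. SE are limma's. Named genes were the 4 genes, the 3 nearest to each, neighbours, and up to 6 of each list by size of change. One gene of the lists is not reported here and was left out of their counts. Members and lists were chosen with earlier results of these data known. Alternatives were 2 other pseudocounts, 2 other filters, quantile and TMM scaling, no trend, a threshold of 0.01, a replicate block and the omission of each library in turn. Neighbours were added after values were seen.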

Additional observations from a re-analysis of the deposited data

How the results depend on the processing

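All 60 values of the changes of Id1, Id2, Id3 and Inhba under 15 alternatives had the same sign and stayed past the threshold. Much of this was fixed in advance, since the genes were selected for change between these libraries. Both scalings lowered the median change, which left little room to reverse Id2 or Inhba. The other filters, no trend and the other threshold cannot alter a change. With groups fully apart, leaving out a library cannot reverse a sign. Leaving out each library in turn gave 3.14 to 3.25 for Id3, 1.88 to 1.90 for Id1, -1.96 to -1.81 for Id2 and -1.36 to -1.30 for Inhba. The differences between Id genes ranged from 1.25 to 1.35 for Id3 minus Id1, 3.69 to 3.86 for Id1 minus Id2 and 4.95 to 5.13 for Id3 minus Id2. Pseudocounts of 0.1 and 5 gave 3.35 and 2.66 for Id3, 1.99 and 1.58 for Id1, -1.95 and -1.60 for Id2 and -1.36 and -1.17 for Inhba.

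The count of genes called moved most with scaling. TMM factors left 1056 of 2056, 543 higher and 513 lower, since they assume that most genes in the table are unchanged, and quantile normalization left 1811, 1390 higher and 421 lower. The other alternatives fitted on these 2056 genes called 2045 to 2056. With the replicate block the count was 2045, and the changes were 3.24 for Id3, 1.91 for Id1, -1.95 for Id2 and -1.29 for Inhba. Only numbers 2 and 4 are shared by both labels, and same-numbered libraries deviated from their group means with r of 0.08 and -0.07 across genes, so the numbers were not taken as pairs. The table lists only selected genes and gives no depth, so a small change in an unlisted pathway gene could not be seen.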
